A study of Arabidopsis thaliana with 9 samples.

Results

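The AZI1 and EARLI1 cluster is a tandem row of 9 small lipid-transfer genes on chromosome 4 of Arabidopsis thaliana: AZI1 (AT4G12470), EARLI1 (AT4G12480), AT4G12490, AT4G12500, AT4G12510, AT4G12520, AT4G12530, AT4G12545 and AIR1 (AT4G12550). The 9 genes were picked by identifier from the 33602 gene models in the count files, and they were put forward with earlier results of these same libraries known. Comparisons of either line with wild type are therefore given as description, with no p-value for a cluster gene. The direct comparison of the 2 lines is given with its test. It uses the same line libraries, so its p-values are not independent of how the genes were chosen. All 9 genes had a row in every library, and 8 of them passed the filter on low counts, the exception being AT4G12530.

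The series concerns ASCO, a long noncoding RNA transcribed from AT1G67105 and known for its interaction with splicing regulators. Whole seedlings were grown in vitro and polyadenylated RNA was sequenced as stranded read pairs, with 3 libraries per genotype. The 35S-ASCO seedlings are labelled as overexpressing AT1G67105, with the added words promoter trap, and 16 days old; the 35S promoter of cauliflower mosaic virus is active in most plant tissues. The RNAi-ASCO seedlings are labelled as carrying a knock-down (RNAi or siRNA) of that gene, with replicates 1 and 2 labelled 4 days old and replicate 3 labelled 16 days old. The wild-type (WT) seedlings are labelled 16 days old. The labels used here give no ecotype, no number of independent transgenic lines and no number of seedlings per library.

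The altered gene was checked first. AT1G67105 stood at 3616 ± 67.1 CPM (counted pairs after scaling for library size) in 35S-ASCO, at 19.7 ± 3.01 CPM in RNAi-ASCO and at 4.22 ± 2.09 CPM in WT (SD, n = 3 each). It was thus higher, not lower, in the RNAi-ASCO-labelled libraries than in WT, and every direction given for those libraries carries that limit. RNAi-ASCO replicates 1 and 2 are also labelled 4 days old, against 16 days for all other libraries. In comparisons with the RNAi-ASCO-labelled libraries, genotype and labelled age cannot be fully told apart. Where a comparison is named, RNAi-ASCO stands for the libraries so labelled. Libraries held between 27044702 and 126355312 counted pairs, so that 3 pairs, the floor used for detection, corresponded to 0.0238 to 0.110 CPM. The 10 root markers summed to 48.1 to 58.9 CPM in 35S-ASCO, 51.0 to 57.9 CPM in the RNAi-ASCO-labelled libraries and 54.2 to 59.2 CPM in WT, and the 8 leaf markers to 27800 to 28920 CPM, 27770 to 29120 CPM and 25080 to 29310 CPM in the same order. No marker was at 0 in any library.

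Proteins of this family carry a signal peptide and an 8-cysteine motif, a fold with a hydrophobic pocket that can hold a lipid, and in the hybrid proline-rich proteins the motif follows a proline-rich stretch. AZI1 is named for its induction by azelaic acid, a mobile signal of systemic acquired resistance, and is needed for that signal to prime defence in distant leaves. EARLI1, first found as a gene induced early by aluminium, encodes a cell-wall-associated relative that is also induced by cold. AIR1 was found among messages induced by auxin in root cultures.

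In the RefSeq annotation of TAIR10.1 the cluster spanned 38719 bases, chr4:7401087-7439805, and each gene was a single exon. The first 7 genes lay on the minus strand, and AT4G12545 and AIR1 lay on the plus strand. The coding sequences fell into a proline-rich and a proline-poor part. Proline codons made up 14.9% of codons in AZI1, 16.1% in EARLI1, 18.1% in AT4G12490 and 15.8% in AT4G12500, and 5.98% to 7.75% in the other 5 genes, while all 9 held 8 to 11 cysteine codons. Coding sequences of AT4G12510 and AT4G12520 differed at 2 of 390 bases (99.5% identity), those of AT4G12545 and AIR1 were 95.7% identical over 327 aligned bases, and those of AT4G12490 and AT4G12500 were 92.9% identical over 534. AZI1 and EARLI1 shared 88.8% of 483 aligned coding bases. AT4G12530 stood apart, with 58.6% to 65.5% identity to the other 8.

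The 250 bases before the annotated start are shown for AT4G12545 and AIR1, the neighbours with nearly the same profile over the libraries, on the coding strand of each gene, from RefSeq TAIR10.1. Capitals mark the letters of a W-box (TTGACC or TTGACT, the element bound by WRKY factors), found on the opposite strand and so printed as its reverse complement. The windows are chr4:7433949-7434198 (plus strand) for AT4G12545 and chr4:7438865-7439114 (plus strand) for AIR1.
AT4G12545: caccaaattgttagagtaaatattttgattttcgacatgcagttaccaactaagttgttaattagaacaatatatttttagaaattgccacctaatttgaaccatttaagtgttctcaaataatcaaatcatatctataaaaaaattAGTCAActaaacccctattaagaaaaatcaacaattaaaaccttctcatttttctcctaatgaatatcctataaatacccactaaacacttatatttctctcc
AIR1: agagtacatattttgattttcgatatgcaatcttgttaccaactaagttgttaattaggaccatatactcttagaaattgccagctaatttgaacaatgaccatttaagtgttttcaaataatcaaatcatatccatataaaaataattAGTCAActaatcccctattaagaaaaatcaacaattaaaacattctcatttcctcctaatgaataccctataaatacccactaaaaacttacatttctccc
The windows were 94.1% identical over 236 aligned bases and held TTGACT at nearly the same place, 103 to 98 bases before the start of AT4G12545 and 101 to 96 bases before that of AIR1. Searched on both strands, a W-box was present in 28.4% of 27437 windows of the same length. TGACG (the core bound by TGA factors), the G-box CACGTG, the auxin response element TGTCTC and the DRE core CCGAC were in 0 of these 2 windows, against 18.6%, 6.49%, 10.9% and 12% of all windows.

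Near-identical copies limit what the counts can tell apart, since alignments tied for best were removed by the authors. Of the 50-base windows of AT4G12510, 51.8% also occurred in AT4G12520, and 58.1% of those of AT4G12520 occurred elsewhere, 441 of 482 in AT4G12510. The shares were 11.9% for AT4G12545 and 11.4% for AIR1, each with the other, 6.78% for AT4G12490 and 5.45% for AT4G12500, each with the other, and 0% for AZI1, EARLI1 and AT4G12530. Pairs counted 2 reads each made up 1.10 times the single-read count for AT4G12510 and 1.14 times for AT4G12520, a ratio that exceeded 1 at 0.907% of 20294 genes and lay between 0.948 and 0.965 for the other cluster genes. Values of AT4G12510 and AT4G12520 are therefore uncertain one by one. RefSeq also places antisense models over 32 bases of EARLI1, 282 of AT4G12490, 444 of AT4G12545 and 642 of AIR1. The read pairs are stranded, but whether the counting used the strand at such overlaps is not given in the sources used here. The deposited counts may therefore mix sense and antisense pairs at those bases.

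Per kilobase of gene model, AT4G12520 had the highest mean level of the cluster in every genotype, 52.0 CPM per kb in 35S-ASCO, 45.9 in the RNAi-ASCO-labelled libraries and 42.9 in WT. In both lines its libraries lay above those of the next gene. In WT they overlapped with AIR1, whose mean was 31.6 CPM per kb. Of the proline-rich genes, AZI1 stood at 7.63, 9.55 and 10.11 CPM per kb and EARLI1 at 3.24, 9.03 and 17.6 CPM per kb in 35S-ASCO, RNAi-ASCO and WT, and the libraries of AZI1 and EARLI1 overlapped within each genotype. AT4G12490 and AT4G12500 reached 6.93 and 2.62 CPM per kb in WT and stayed under 1 CPM per kb in both lines. AT4G12530 was the lowest in every genotype, with 15, 2 and 4 pairs in the 35S-ASCO libraries, 2, 2 and 8 in those labelled RNAi-ASCO and 1, 4 and 0 in WT, so that 5 of the 9 libraries held 3 pairs or fewer, and it was not tested. In the lines its libraries overlapped with those of the next lowest gene.

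**Figure D1:**
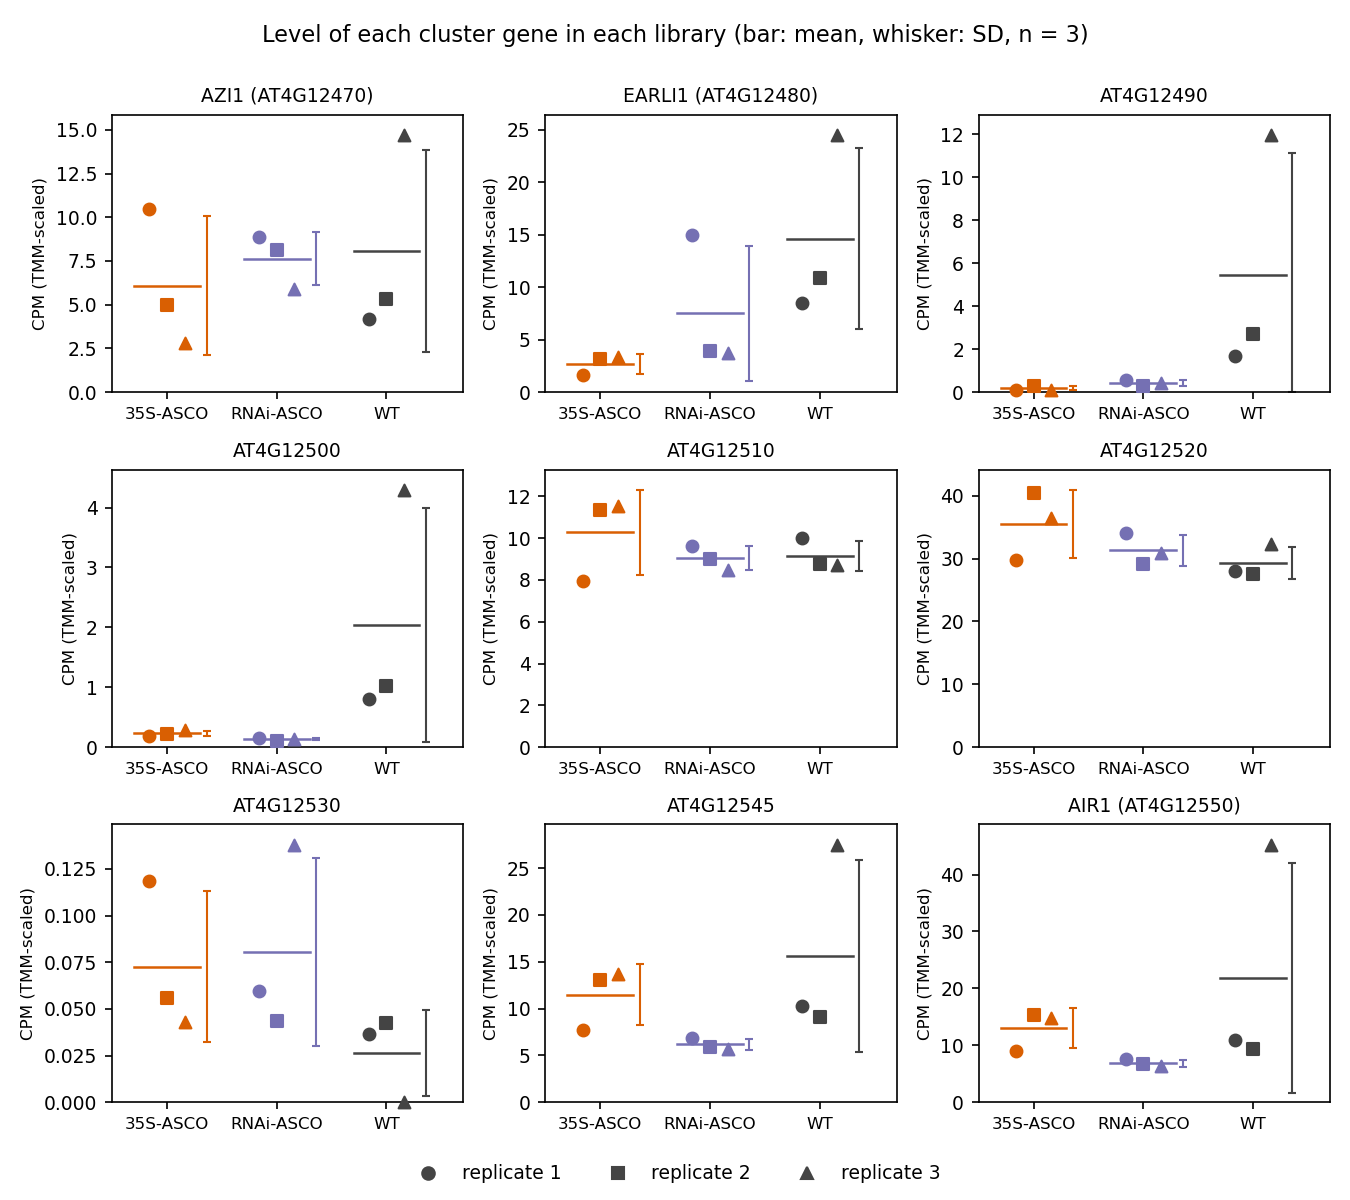
Level of each of the 9 cluster genes in each library, in TMM-scaled CPM on linear axes from 0, with 35S-ASCO, RNAi-ASCO and WT from left to right. Symbols mark replicates, bars the mean and whiskers the SD (n = 3, cut at 0), and WT replicate 3 (triangle) stands above the other 8 libraries in 6 of the 9 panels.

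The proline-rich genes AT4G12490 and AT4G12500 were the cluster genes with the largest differences between genotypes. AT4G12490 had 0.119, 0.280 and 0.119 CPM in 35S-ASCO, 0.565, 0.284 and 0.431 CPM in the RNAi-ASCO-labelled libraries, and 1.69, 2.69 and 11.97 CPM in WT. All 6 libraries of the lines lay below the lowest WT library, and the WT libraries themselves spread over 7.09-fold. The log2 fold change was -5.21 (SE 0.794) in 35S-ASCO against WT and -3.72 (SE 0.728) in RNAi-ASCO against WT. AT4G12500 had 0.190, 0.224 and 0.280 CPM in 35S-ASCO, 0.149, 0.109 and 0.138 CPM in the RNAi-ASCO-labelled libraries, and 0.808, 1.02 and 4.29 CPM in WT. Again no line library reached the lowest WT library, and the log2 fold change was -3.16 (SE 0.609) in 35S-ASCO and -3.97 (SE 0.706) in RNAi-ASCO against WT. These levels rest on few pairs in the lines, 10 to 25 per library for AT4G12490 and 5 to 26 for AT4G12500. In bulk seedling RNA, fewer cells of a type and less RNA per cell cannot be told apart.

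These were the 2 cluster genes past an edgeR BH-adjusted p of 0.05 in each comparison with WT, both lower. Over all 22719 genes tested, 0.313% were called lower in 35S-ASCO and 4.82% in RNAi-ASCO. The libraries of the line lay wholly below those of WT at 3 of the 8 genes in 35S-ASCO (10% of all genes) and at 4 of the 8 in RNAi-ASCO (15.5% of all genes). The cluster was proposed with these contrasts known, and both share the WT libraries. These calls, the counts and the fits listed next are therefore given as description, and nothing is read from them. Neither gene was past the threshold in 35S-ASCO against WT without 35S-ASCO replicate 1 or without 35S-ASCO replicate 2. AT4G12500 was also not past it there without 35S-ASCO replicate 3, without WT replicate 1, or without any 1 of the RNAi-ASCO-labelled libraries. AT4G12490 was not past it in RNAi-ASCO against WT without RNAi-ASCO replicate 2. With only libraries labelled 16 days neither gene passed in RNAi-ASCO against WT, at log2 fold changes of -3.68 for AT4G12490 and -3.89 for AT4G12500.

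The ratio between these 2 genes was lower in 35S-ASCO than in the other genotypes. AT4G12490 CPM over AT4G12500 CPM was 0.625, 1.25 and 0.423 in 35S-ASCO, 3.80, 2.60 and 3.12 in the RNAi-ASCO-labelled libraries, and 2.09, 2.65 and 2.79 in WT. The 35S-ASCO libraries lay below the other 6 without overlap, while the RNAi-ASCO-labelled and WT libraries overlapped. In the lines the ratios rest on only 5 to 26 pairs per gene and library. This ratio was noticed in the data and has no test of its own. In the direct comparison, AT4G12490 was lower in 35S-ASCO than in the RNAi-ASCO-labelled libraries (log2 fold change -1.49, SE 0.956, edgeR BH-adjusted p = 0.393) and AT4G12500 was higher (0.81, SE 0.825, edgeR BH-adjusted p = 0.611), and neither difference passed the threshold.

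EARLI1 was lowest in 35S-ASCO, with 1.61, 3.14 and 3.35 CPM, against 14.9, 3.93 and 3.70 CPM in the RNAi-ASCO-labelled libraries and 8.52, 10.9 and 24.5 CPM in WT. The 35S-ASCO libraries lay below all others. RNAi-ASCO replicate 1, labelled 4 days, lay within the WT range, while replicate 2 with the same age label stood next to replicate 3, labelled 16 days. Against WT the log2 fold change of EARLI1 was -2.49 (SE 0.596) in 35S-ASCO and -1.01 (SE 0.563) in RNAi-ASCO. Between the lines it was -1.47 (SE 0.603) at an unadjusted p of 0.0348, and it did not pass after adjustment (edgeR BH-adjusted p = 0.18). Without RNAi-ASCO replicate 1 that difference was -0.53, and the value in RNAi-ASCO against WT was -1.95. Over the fits leaving out each library in turn, the latter ran from -1.95 to -0.42.

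AZI1, the best known gene of the cluster, overlapped between all genotypes. It had 10.5, 4.99 and 2.80 CPM in 35S-ASCO, 8.86, 8.10 and 5.93 CPM in the RNAi-ASCO-labelled libraries, and 4.19, 5.34 and 14.7 CPM in WT. The spread within 35S-ASCO (3.75-fold) and within WT (3.51-fold) was larger than any difference between group means, which were 6.10 ± 3.97, 7.63 ± 1.52 and 8.08 ± 5.76 CPM (SD, n = 3 each). The log2 fold change was -0.29 between the lines (SE 0.521, edgeR BH-adjusted p = 0.792), -0.40 (SE 0.516) in 35S-ASCO against WT and -0.11 (SE 0.522) in RNAi-ASCO against WT. AZI1 and EARLI1, although side by side and alike in sequence, were ordered differently over the 35S-ASCO libraries. The library highest for AZI1 there, replicate 1, was the lowest for EARLI1. Within the RNAi-ASCO-labelled libraries and within WT, the replicates had the same order for both genes.

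AT4G12545 and AIR1, the plus-strand genes at the far end, had nearly the same profile. AT4G12545 had 7.71, 13.0 and 13.7 CPM in 35S-ASCO, 6.87, 5.92 and 5.70 CPM in the RNAi-ASCO-labelled libraries, and 10.3, 9.07 and 27.5 CPM in WT. AIR1 had 8.99, 15.4 and 14.8 CPM in 35S-ASCO, 7.52, 6.66 and 6.37 CPM in the RNAi-ASCO-labelled libraries, and 11.0, 9.41 and 45.2 CPM in WT. For both genes the RNAi-ASCO-labelled libraries were the lowest 3 of the 9. The level of AIR1 over that of AT4G12545 was 1.04 to 1.18 in 8 libraries and 1.65 in WT replicate 3.

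Between the lines both genes were higher in 35S-ASCO, AT4G12545 with a log2 fold change of 0.89 (SE 0.399, edgeR BH-adjusted p = 0.216) and AIR1 with 0.92 (SE 0.535, edgeR BH-adjusted p = 0.342). Neither passed the threshold in the fit of all 9 libraries, where WT adds to the estimate of the spread. With only the 6 libraries compared, the fold changes were the same to 2 decimals and the edgeR BH-adjusted p was 0.0469 for AT4G12545 and 0.0347 for AIR1. Without WT replicate 3 it was 0.0279 and 0.0198. Over all alternatives it ran from 0.0279 to 0.796 for AT4G12545 and from 0.0198 to 0.869 for AIR1. Against WT, the log2 fold change of AT4G12545 was -0.46 (SE 0.380) in 35S-ASCO and -1.35 (SE 0.400) in RNAi-ASCO, and that of AIR1 was -0.77 (SE 0.507) in 35S-ASCO and -1.69 (SE 0.536) in RNAi-ASCO.

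AT4G12510 and AT4G12520 varied least. AT4G12510 had 7.93, 11.4 and 11.5 CPM in 35S-ASCO, 9.63, 9.02 and 8.49 CPM in the RNAi-ASCO-labelled libraries, and 9.99, 8.74 and 8.70 CPM in WT. AT4G12520 had 29.7, 40.4 and 36.4 CPM in 35S-ASCO, 34.0, 29.1 and 30.9 CPM in the RNAi-ASCO-labelled libraries, and 28.0, 27.6 and 32.3 CPM in WT. The ranges of all genotypes overlapped for both genes. The log2 fold change between the lines was 0.18 for AT4G12510 (SE 0.138, edgeR BH-adjusted p = 0.488) and 0.18 for AT4G12520 (SE 0.110, edgeR BH-adjusted p = 0.378). Summed into 1 gene, which removes the question of which copy a pair belongs to but not the loss of tied alignments, the pair gave 0.18 (SE 0.107, edgeR BH-adjusted p = 0.37) between the lines, and 0.25 in 35S-ASCO and 0.07 in RNAi-ASCO against WT.

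**Figure D2:**
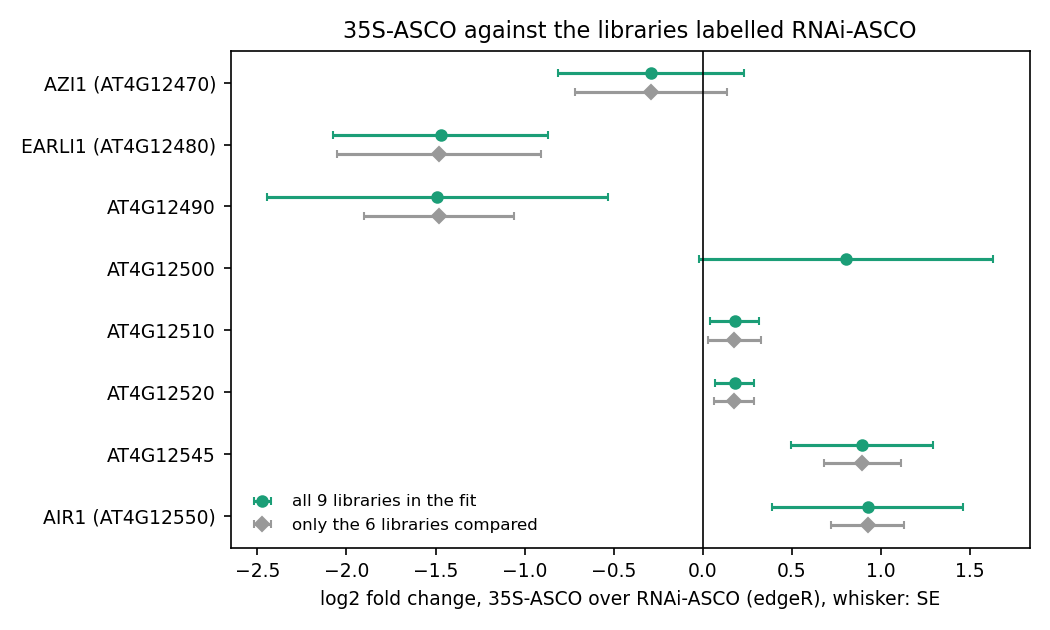
Log2 fold change of 35S-ASCO over the RNAi-ASCO-labelled libraries for the 8 tested cluster genes, with SE, from the fit of all 9 libraries (circles) and from the 6 libraries compared (diamonds; AT4G12500 was filtered out there). EARLI1 and AT4G12490 lie below 0 and AT4G12545 and AIR1 above it, and in the 9-library fit 0 of the 8 genes passed an adjusted p of 0.05.

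In all, the direct comparison called 0 of the 8 tested cluster genes by edgeR at an adjusted p of 0.05, where 6.75% of all genes were called. DESeq2 also called 0. At an unadjusted p under 0.05, 2 of the 8 passed (EARLI1 and AT4G12545), against 22.9% of all genes. The 3 libraries of one line lay wholly above or below those of the other at 5 of the 8 genes, EARLI1 and AT4G12490 lower and AT4G12500, AT4G12545 and AIR1 higher in 35S-ASCO, against 31.4% of all genes. The median log2 fold change of the 8 genes was 0.18, beside 0.00 over all genes tested, and the signs ran both ways along the cluster. Against WT the medians of the 8 were -0.61 in 35S-ASCO and -1.18 in RNAi-ASCO, beside -0.01 over all genes in each.

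WT replicate 3 set much of the WT level. It held 14.7 CPM of AZI1, 24.5 of EARLI1, 11.97 of AT4G12490, 4.29 of AT4G12500, 27.5 of AT4G12545 and 45.2 of AIR1, which is 2.75, 2.25, 4.45, 4.22, 2.67 and 4.12 times the higher of the other 2 WT libraries. For AT4G12510 and AT4G12520 the ratio was 0.87 and 1.15. A rise of at least 2-fold over both other WT libraries was seen at 0.85% of all genes tested and at 6 of the 8 tested cluster genes. The cluster took 0.0168% of counted pairs in that library and 0.00614% to 0.00879% in the other 8. Its root marker sum, 54.2 CPM, was the lowest of the WT libraries and within the range of the lines. Its leaf marker sum, 28150 CPM, lay between those of the other 2 WT libraries. What set this library apart was not tested.

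Without WT replicate 3, AT4G12490 and AT4G12500 were still lower in both lines, though by less. The log2 fold change of AT4G12490 was then -3.90 (SE 0.389) in 35S-ASCO and -2.42 (SE 0.363) in RNAi-ASCO, and that of AT4G12500 -2.01 (SE 0.269) and -2.81 (SE 0.313). EARLI1 then had -1.90 in 35S-ASCO and -0.42 in RNAi-ASCO. For 3 genes the sign in 35S-ASCO turned, to 0.36 for AZI1, 0.24 for AT4G12545 and 0.36 for AIR1. In RNAi-ASCO the sign of AZI1 turned to 0.64, while AT4G12545 and AIR1 kept negative values of -0.65 and -0.57.

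**Figure D3:**
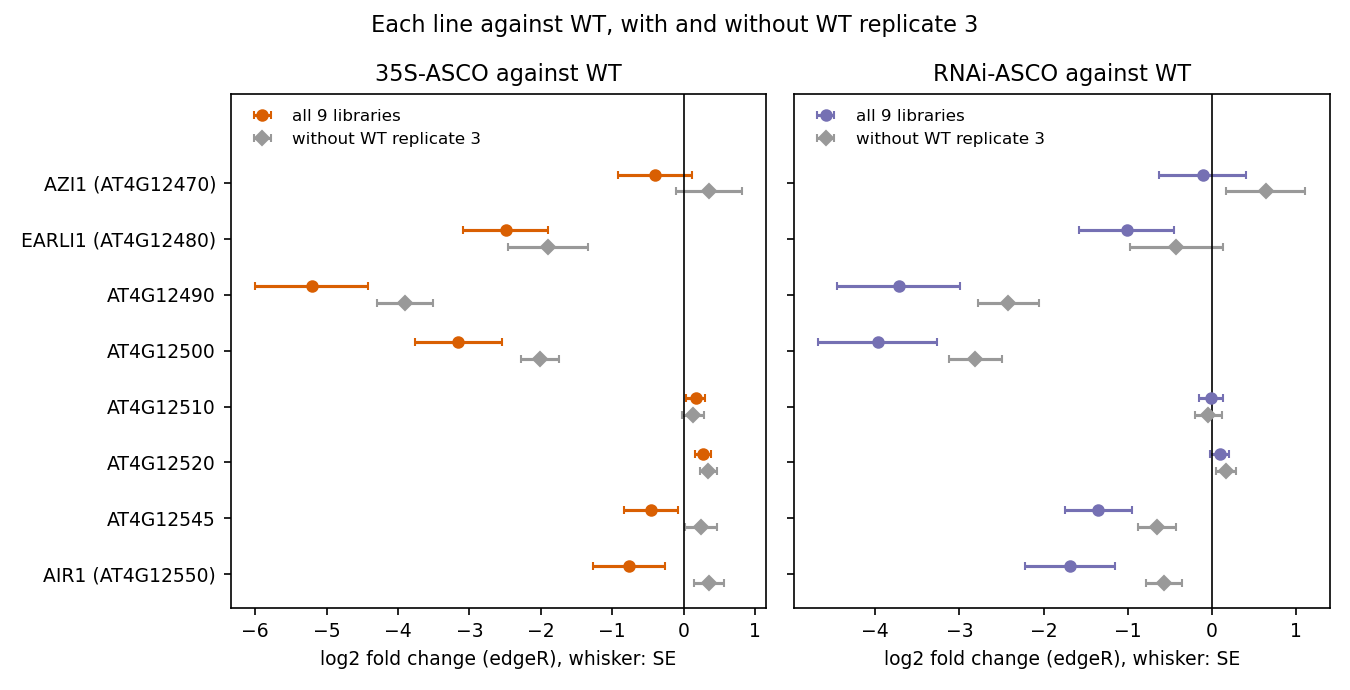
Log2 fold change with SE of 35S-ASCO against WT (left) and RNAi-ASCO against WT (right) for the 8 tested cluster genes, with all 9 libraries (circles) and without WT replicate 3 (diamonds). AT4G12490 and AT4G12500 remain lower in both panels, whereas AZI1, AT4G12545 and AIR1 in 35S-ASCO cross 0.

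How alike the profiles were was measured by the root-mean-square difference of log2 CPM (prior count 2), each gene centred on its mean over the 9 libraries. Among the 28 pairs of tested cluster genes the closest were AT4G12510 with AT4G12520 (0.132) and AT4G12545 with AIR1 (0.188), the pairs that share most sequence, whose reads the counting cannot fully tell apart. AT4G12490 and AT4G12500 differed by 0.931, AZI1 and EARLI1 by 1.17, and AZI1 and AT4G12490 by 1.83. Over the whole transcriptome outside the cluster, the closest profiles to AZI1 were those of CRK13, a cysteine-rich receptor-like kinase gene (0.288), AGD11 (0.332) and the sulfate transporter gene SULTR1;1 (0.349). The closest to AT4G12490 were NAC063, a NAC transcription factor gene (1.03), the protein kinase gene CIPK13 (1.25) and AT5G44575 (1.29), and the closest to AIR1 were AT4G15700 (0.370), AT2G19060 (0.380) and AT5G62330 (0.394). NAC063 had 0 to 3 pairs in each of the 6 line libraries, at or under the floor of 3 pairs, and 5, 17 and 36 pairs in WT, so its closeness rests on the WT libraries and the prior count. CIPK13 was also low, with 3 to 33 pairs in the line libraries and 11, 26 and 282 in WT. AT5G44575 had 1 to 14 pairs in the line libraries and 6, 20 and 48 in WT. All of these distances are over the same 9 libraries, and each of these 9 genes was highest in WT replicate 3. Its level there was 1.77 CPM for CRK13, 2.19 for SULTR1;1, 4.90 for CIPK13 and 5.19 for AT4G15700.

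The genes beside the cluster were measured in the same way. ORP2B (AT4G12460), an oxysterol-binding-protein-related gene next to AZI1, had 36.7 ± 3.20 CPM in 35S-ASCO, 32.1 ± 1.14 CPM in the RNAi-ASCO-labelled libraries and 33.3 ± 2.92 CPM in WT. CPR1 (AT4G12560), beyond AIR1, which encodes an F-box protein that limits immune receptor levels, had 68.1 ± 3.85, 65.2 ± 3.20 and 62.6 ± 5.17 CPM. AT4G12540, which lies between cluster genes but is not one of them, had 2.68 ± 0.575, 3.04 ± 0.185 and 2.88 ± 0.439 CPM (SD, n = 3 each). Of these 3 and the other models among the 5 on either side, 9 were tested. In the comparisons with WT 1 passed, AT4G12600 in RNAi-ASCO (log2 fold change -0.21, SE 0.0581, edgeR BH-adjusted p = 0.0427). In 35S-ASCO against WT, AT4G12600 had -0.21 (SE 0.0578, edgeR BH-adjusted p = 0.103). Between the lines 0 passed by edgeR, with 2 at an unadjusted p under 0.05. Over all genes tested, 11.8% were called in RNAi-ASCO and 1.67% in 35S-ASCO against WT. Between the lines 6.75% of all genes were called, and 22.9% had an unadjusted p under 0.05.

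**Figure D4:**
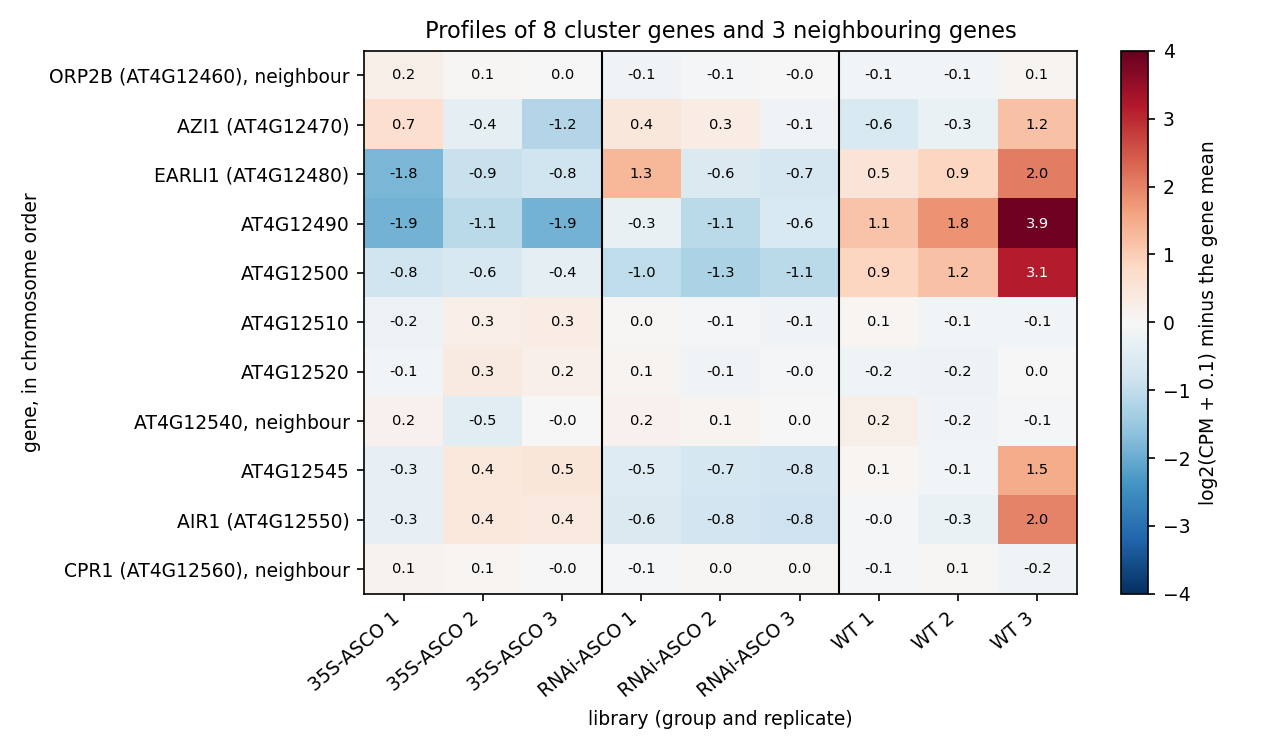
Centred log2(CPM + 0.1) of 8 cluster genes and 3 neighbouring genes (rows, in chromosome order) in the 9 libraries (columns, 35S-ASCO, RNAi-ASCO and WT from left to right), with the value in each cell. AT4G12490 and AT4G12500 are below their mean in all 6 line libraries and reach 3.9 and 3.1 in WT replicate 3, while ORP2B, AT4G12510, AT4G12520 and CPR1 stay within 0.34 of their mean.

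Other genes of the pathway and family were taken from lists chosen with earlier results known. Of 24 genes of azelaic acid signalling and systemic acquired resistance, 23 were tested. Between the lines 1 was higher in 35S-ASCO and 0 lower, in 35S-ASCO against WT 0 passed by edgeR, and in RNAi-ASCO against WT 1 was higher and 0 lower. Over all genes tested, the shares called in these comparisons were 6.75%, 1.67% and 11.8%. SARD1, a transcription factor gene of salicylic acid synthesis, stood at 11.1 ± 2.77 CPM in 35S-ASCO and at 5.02 ± 1.03 CPM in the RNAi-ASCO-labelled libraries (log2 fold change 1.13, SE 0.271, edgeR BH-adjusted p = 0.0362), and at 4.83 ± 1.66 CPM in WT. That call was lost without 35S-ASCO replicate 1 or 2, RNAi-ASCO replicate 1 or 2, or WT replicate 1, and with only libraries labelled 16 days (edgeR BH-adjusted p up to 0.633). DGD1, a galactolipid synthase gene, rose in the RNAi-ASCO-labelled libraries to 47.4 ± 3.30 CPM, against 27.9 ± 3.53 CPM in WT (log2 fold change 0.76, SE 0.106, edgeR BH-adjusted p = 0.00272). In 35S-ASCO DGD1 stood at 37.2 ± 4.25 CPM, also wholly above WT (log2 fold change 0.41, SE 0.105, edgeR BH-adjusted p = 0.0844). DIR1, whose lipid-transfer protein acts with AZI1 in systemic resistance, had 21.8 ± 1.73 CPM in 35S-ASCO, 21.6 ± 1.63 CPM in the RNAi-ASCO-labelled libraries and 23.0 ± 4.71 CPM in WT, and it passed in no comparison.

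The pathogenesis-related genes that mark active salicylic acid responses were low. PR1 had 0 to 14 pairs in any library and was not tested. PR2 stood at 0.230 ± 0.0941 CPM in 35S-ASCO, 0.242 ± 0.202 CPM in the RNAi-ASCO-labelled libraries and 0.190 ± 0.136 CPM in WT. PR5 stood at 1.81 ± 0.352, 2.99 ± 0.588 and 2.65 ± 0.401 CPM (SD, n = 3 each), and its log2 fold change between the lines was -0.69 (SE 0.201, edgeR BH-adjusted p = 0.0726). Neither gene passed in any comparison.

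Of 20 other proline-rich and 8-cysteine-motif genes outside the cluster, all tested, 2 were higher and 1 lower in 35S-ASCO than in the RNAi-ASCO-labelled libraries. In 35S-ASCO against WT 0 passed by edgeR, and in RNAi-ASCO against WT 2 were higher and 2 lower, beside 6.75%, 1.67% and 11.8% of all genes called in either direction. AT1G62510 had 20.4 ± 0.598 CPM in 35S-ASCO, 14.2 ± 1.52 CPM in the RNAi-ASCO-labelled libraries and 21.5 ± 2.92 CPM in WT, with a log2 fold change of 0.52 between the lines (SE 0.105, edgeR BH-adjusted p = 0.0195). AT4G22520 had 5.38 ± 0.583, 9.44 ± 0.257 and 8.91 ± 2.61 CPM, and -0.80 between the lines (SE 0.191, edgeR BH-adjusted p = 0.0356). Against WT, AT4G22517 fell in RNAi-ASCO by 0.86 on the log2 scale (SE 0.179, edgeR BH-adjusted p = 0.0155), and AT3G22142 rose there by 0.36 (SE 0.0907, edgeR BH-adjusted p = 0.0323). Of the 9 fits leaving out each library in turn, the call held in 5 for AT1G62510 (lost without 35S-ASCO replicate 2 or 3, or RNAi-ASCO replicate 1 or 2) and in 3 for AT4G22520 (lost without any 1 library of either line). It held in 6 for AT4G22517 (lost without RNAi-ASCO replicate 1 or 2, or WT replicate 1) and in 4 for AT3G22142 (lost without 35S-ASCO replicate 2, RNAi-ASCO replicate 1 or 2, or WT replicate 2 or 3). The median log2 fold change of the 20 genes was -0.14 between the lines, -0.27 in 35S-ASCO and -0.15 in RNAi-ASCO against WT, beside 0.00, -0.01 and -0.01 over all genes.

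Of 10 classical lipid-transfer genes, 9 were tested. LTP5 was lower in 35S-ASCO, at 155.6 ± 5.64 CPM against 191.1 ± 2.07 CPM in WT (log2 fold change -0.30, SE 0.0616, edgeR BH-adjusted p = 0.0462), and 0 passed in the other comparisons. Over all genes tested, 1.67% were called in 35S-ASCO against WT, 6.75% between the lines and 11.8% in RNAi-ASCO against WT. LTP4 was higher in 35S-ASCO without passing, at 2.68 ± 2.58 CPM against 0.278 ± 0.208 CPM in WT (log2 fold change 3.15, SE 0.751, edgeR BH-adjusted p = 0.0693). In the RNAi-ASCO-labelled libraries LTP5 stood at 165.1 ± 13.3 CPM, also wholly below WT (log2 fold change -0.21, SE 0.0617, edgeR BH-adjusted p = 0.0536). Of the 9 fits leaving out each library in turn, the LTP5 call held in 1, that without RNAi-ASCO replicate 1, with an adjusted p of up to 0.162 in the others. Of AIR3, AIR9 and AIR12, other genes named for induction by auxin in root cultures, 0 of 3 passed in any comparison. Of the 10 root markers, EXPA7 was lower in RNAi-ASCO against WT (log2 fold change -0.47, edgeR BH-adjusted p = 0.038) and 0 passed elsewhere. Of the 8 leaf markers, 3 were higher and 1 lower in RNAi-ASCO against WT, where 11.8% of all genes were called in either direction, and CA1 was higher in 35S-ASCO than in the RNAi-ASCO-labelled libraries (0.50, edgeR BH-adjusted p = 0.0196). The part of these markers in the cluster's values was not tested.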

How the data were processed

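The deposited files hold, per the file headers, counts of single reads and of read pairs for each gene model, which the authors obtained with sam2pkm; singletons were treated as unmapped, no insert size limit was set, and multiple hits with equal best and second-best alignment scores were removed. The submitters' processing notes name TopHat2, Bowtie2 and TAIR10, without versions. Pair counts were used as deposited. The sum of counted pairs was 86.83% to 92.8% of the pairs parsed.

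Here, counts were fitted with edgeR 4.0.16 (R 4.3.3; glmQLFit and glmQLFTest, TMM scaling, filterByExpr by group, genotype as only factor, all 9 libraries; 22719 of 33602 genes kept), with Benjamini-Hochberg adjustment over all genes and a threshold of 0.05. Levels are TMM-scaled CPM. Standard errors were derived from the F statistic. DESeq2 1.42.0 and other settings were alternatives. Groups and replicate numbers came from the sample titles. Nothing in the labels says that the libraries came from separate cultures, so p-values measure the spread between libraries, which may be technical. The floor of 3 pairs covers counting error only.

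The cluster genes, gene lists, markers, motifs and tests were chosen with earlier results of these data known. The text names all 9 cluster genes, AT1G67105, the 3 genes with the closest profile to each of AZI1, AT4G12490 and AIR1, the direct neighbours, up to 4 called genes per list by smallest p, and PR1, PR2, PR5 and DIR1. AT4G12540, AT4G12600, LTP4, EXPA7 and CA1 were named after their values were seen. Names, coordinates and promoter windows are from RefSeq TAIR10.1, in which 32835 identifiers and all 9 cluster genes were found; coordinates of that assembly were not tied to the counts. Shared sequence was searched as exact 50-base windows on both strands. Promoter windows of the other cluster genes are not reported here.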

Additional observations from a re-analysis of the deposited data

How the results depend on the processing

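The count of cluster genes past the threshold between the lines, 0 in the fit of all 9 libraries, was 2 (AT4G12545 and AIR1) with only the 6 libraries compared, and 0 to 2 over the fits leaving out each library in turn, the 2 coming without WT replicate 3. In RNAi-ASCO against WT it was 2, but 1 with at least 1 CPM in 3 libraries, a filter that removes AT4G12500, 0 with only libraries labelled 16 days, where RNAi-ASCO is 1 library assumed to vary like the others, and 1 to 4 over the fits leaving out each library in turn. In 35S-ASCO against WT it was 2, but 1 with that CPM filter, 0 with only the 6 libraries compared, 0 with only libraries labelled 16 days, and 0 to 2 over the fits leaving out each library in turn. The cause was not tested. No other count moved by over 1.5 times under RLE size factors, no filter, single-read counts or DESeq2, nor with AT4G12510 and AT4G12520 summed, a setting chosen after seeing the data. Between the lines, the 6-library fit called 1802 of 22363 genes in all, and the fit without WT replicate 3 called 1928 of 22782. The fit of all 9 libraries called 1534 of 22719 there. Over all genes, the 6-library fit gave 64 calls in 35S-ASCO against WT and DESeq2 gave 1315, beside 379. With only libraries labelled 16 days the counts over all genes were 80 between the lines, 64 in 35S-ASCO and 103 in RNAi-ASCO against WT, beside 1534, 379 and 2677.

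Libraries with the same replicate number did not deviate together (correlations of deviations from -0.02 to 0.08), so the numbers were not taken to pair the samples. With the replicate number as a block the counts of cluster genes called were 0 between the lines and 2 in each comparison with WT, as without it.

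Log2 fold changes that changed sign were not past the threshold in either fit. With only libraries labelled 16 days the value between the lines was 0.0619 for AZI1, 0.80 for PR2 and -0.0733 for DIR1, and in RNAi-ASCO against WT -0.84 for PR2 and 0.000515 for DIR1. With single-read counts PR2 had 0.00938 between the lines and 0.12 in 35S-ASCO against WT, and with the replicate block 0.0497 against WT. Over the fits leaving out each library in turn, values ran from -1.02 to 0.0731 for AZI1, -0.46 to 0.73 for PR2 and -0.0486 to 0.0681 for DIR1 between the lines. In 35S-ASCO against WT they ran from -0.32 to 0.71 for PR2 and -0.22 to 0.10 for DIR1. In RNAi-ASCO against WT they ran from -0.14 to 0.26 for AT4G22520, -0.20 to 0.36 for SARD1, -0.80 to 0.80 for PR2, -0.23 to 0.0861 for DIR1 and -0.10 to 0.0204 for ORP2B.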
